A study of Laguncularia racemosa with 22 samples.

Results

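The 150 genes described here are those whose transcripts stood lowest, relative to every other group of libraries, in leaves of *Laguncularia racemosa* seedlings sampled 24 h after a 12 h cold treatment. They were taken from 54696 assembled genes, of which 16061 had a mean of at least 1 CPM (the count of a gene per 1000000 counts of its library). For each of these genes the mean log2(CPM + 1) was computed in each group, and the score was the lowest mean among the 7 other groups minus the mean in the recovery group. The 150 genes of highest score are the members, and rank 1 has the highest score. The low level in the recovery group is therefore what chose them, and it is given below as a description without a test.

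*Laguncularia racemosa*, the white mangrove, is a tree of tropical tidal shores, and low temperature limits how far mangroves reach from the equator. Leaf messenger RNA was counted in 22 libraries from wild-type (wt) seedlings 8 weeks old, in 8 groups formed by a letter, P or Q, and a time of 0, 3, 12 or 36 h. In P, whose treatment labels name freezing temperature, the 36 h group had 12 h of cold and 24 h of recovery, and the labels of Q read control at the matching times. The protocol text, which stands with both letters alike, describes 0 °C followed by 30/28 °C (day/night), does not say what Q plants received, and names seeds from a pair of places without tying them to the letters. P at 3 h and P at 36 h had 2 libraries each and the other groups 3. RNA was taken from the leaves of each plant, but no label says whether the libraries of a group came from different plants. The p-values rest on a spread between libraries that exceeded sampling noise, with a chi-square per gene of 17.8 to 57.2. How much of that spread lies between plants and how much is technical was not tested.

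Plants returned to warmth after cold are known to take down part of the transcript programme that cold had set up and to restore growth and photosynthesis transcripts over hours to days. Many leaf transcripts also follow the hour of the day through the circadian clock and light. The hour of day at each sampling is not given in the labels. By the time labels the 12 and 36 h samples lie 24 h apart, so within a letter they share an hour of day. Between them, time in the experiment and treatment cannot be told apart. Between the other times of a letter, hour of day cannot be told apart from these either. Only P against Q at 1 time sets libraries of the same time label side by side.

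The files give the genes by identifiers of the de novo assembler Trinity, with no names or functions. No member could therefore be assigned a role, the leaf label could not be checked against leaf markers, and no list of pathway genes was counted. In leaf RNA as a bulk sample, fewer cells that express a gene and less of its RNA per cell cannot be told apart. By their rule the members are the genes lowest in P at 36 h. The working description "lowered only in P recovery" holds for the comparison of group means, but many members had also fallen in the Q libraries by 36 h, and some had already fallen by 12 h in both letters.

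The score ran from 2.66 at rank 1 through a median of 1.05 to 0.804 at rank 150 on the log2(CPM + 1) scale. A score of at least 1 was reached by 88 members and a score of at least 2 by 4. The member at rank 150 had 14.3 and 6.41 CPM in the 2 libraries of P at 36 h, against 17.3, 13.2 and 23.8 CPM in Q at 36 h. The next gene outside, with a score of 0.799, had 21.1 and 29.8 CPM against 40.5, 46.3 and 46.4 CPM. The scores on either side of the limit were nearly equal, so the limit is a cut through a continuous range.

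For 104 members both libraries of P at 36 h lay below all 20 other libraries, which was so for 677 of the 16061 genes, or 4.22%. Since the rule used this comparison, nothing is read from the excess. In the other members at least 1 other library lay at or below the higher of the 2 values: 24 members had 1 such library, 16 had 2 or 3, and 6 had 4 or more. The 2 libraries of P at 36 h were not equally low. Replicate 2 was the lower for 98 members and replicate 1 for 51, and the median difference of replicate 2 from replicate 1 was -0.39 on the log2(CPM + 1) scale in the members, against 0.04 over all 16061 genes.

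The rule kept out genes near 0 in the mean of any other group. As a set the members were not rare transcripts, but 42 of the 150 had under 10 CPM over the 20 other libraries. Their median level over the 20 other libraries was 22.9 CPM, with a range from 2.61 to 2381 CPM, against a median of 20.2 CPM for all 16061 genes. In P at 36 h 1 member, at rank 101, had no count in either library and 6 had none in exactly 1. The member at rank 101 was low elsewhere too, with 0.667, 1.87 and 2.81 CPM in Q at 36 h and 0.146, 4.30 and 3.70 CPM in P at 12 h. Set against a floor of 3 counts over both recovery libraries, it was at least 20.2-fold higher in Q at 36 h and at least 30.7-fold higher in P at 12 h, for counting error only.

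**Figure D1:**
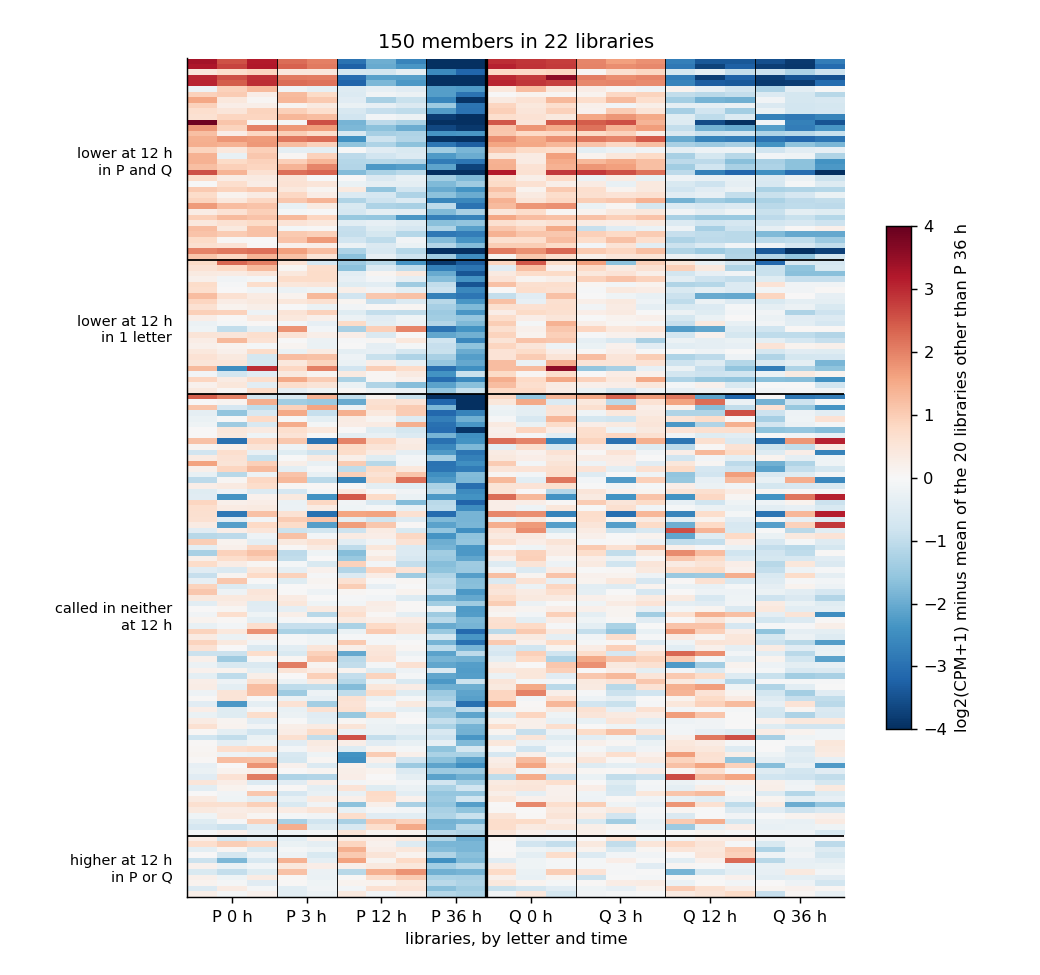
Level of the 150 members (lines) in the 22 libraries (columns), as log2(CPM + 1) minus the mean of each gene over the 20 libraries other than P at 36 h, with blue for lower and red for higher. Members are grouped by their calls from 0 to 12 h: 36 lower in both letters at the top, then 24 lower in 1 letter, 79 called in neither and 11 higher in at least 1 letter. The P 36 h columns are blue in every block, while the other columns differ from block to block.

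Summed over the 150 members, the transcript level followed time in both letters before P and Q came apart at 36 h. The sum was 27106 ± 3615 CPM (SD, n = 3) in P at 0 h, 22091 ± 116 CPM (SD, n = 2) at 3 h and 8289 ± 374 CPM (SD, n = 3) at 12 h. In Q it was 30084 ± 3816, 22493 ± 1803 and 8811 ± 1416 CPM at the same times (SD, n = 3 each). The ranges of P and Q overlapped at 0, 3 and 12 h. At 36 h the sum was 2838 and 1649 CPM in the 2 libraries of P, and 5993, 6147 and 6139 CPM in the 3 libraries of Q. The mean of Q at 36 h was 2.72 times that of P at 36 h, which is a difference the rule selected for.

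A few abundant members carry most of the summed level at 0 h. The 10 members of highest mean level held 17600 of the 27106 CPM in P at 0 h, and 747 of 2243.5 CPM in P at 36 h. At 36 h the other 140 members showed the same ratio of Q to P as the 10, 2.72 in each case. From 0 to 12 h in P, by contrast, the mean sum of the 10 went from 17600 to 2742 CPM and that of the other 140 from 9506 to 5548 CPM.

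**Figure D2:**
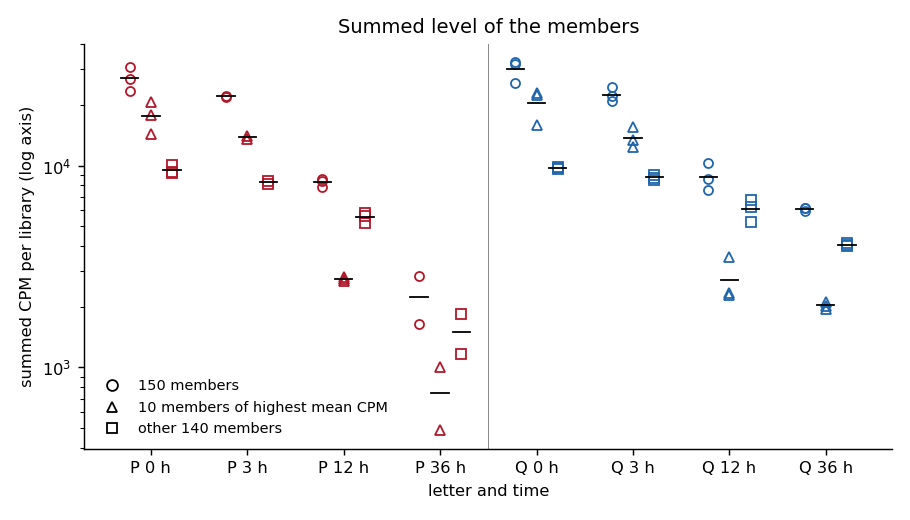
Summed CPM per library (log axis) of all 150 members (circles), of the 10 with the highest mean level (triangles) and of the other 140 (squares), by letter and time, with P in red, Q in blue and a bar at each group mean. P and Q overlap at 0, 3 and 12 h in the sum of all members, and at 36 h P lies at 1649 and 2838 CPM, below the 5993 to 6147 CPM of Q.

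A first question, which the rule settles only in part, is whether the members also changed in the libraries other than P at 36 h. Counts were tested with edgeR's quasi-likelihood test over 21694 genes, a set that included all 150 members, and genes with an adjusted p (Benjamini-Hochberg, over all genes of a comparison) under 0.05 are called changed. These comparisons involve groups that the rule read only through their lowest mean. For 77 members that was the mean of Q at 36 h, so its comparisons are not fully free of the rule. Those with the same 0 h libraries share them, so their counts are not independent of each other.

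In Q, a larger share of members than of all genes was lower at 36 h, a difference that is not free of the rule. Against 0 h, 68 members were lower and 1 was higher, where 15.3% of all genes tested were lower and 14.1% were higher. The 68 are 45.3% of the members. The median log2 change of the members was -1.02 against 0.00 over all genes, and 135 of the 150 were below 0. The libraries concerned are those labelled control, so a lower level at 36 h was not confined to P.

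The same leaning appeared at 12 h. In Q 55 members were lower and 4 higher than at 0 h, where 19.9% and 17.9% of all genes were. In P 41 members were lower and 8 higher, where 16.6% and 15.5% were. The total share of members called was close to that of all genes, 39.3% against 37.8% in Q and 32.7% against 32.1% in P. The members differed from all genes in the direction of the calls, which is not free of the rule. Their median log2 change was -0.53 in Q and -0.38 in P, against -0.02 and -0.04 over all genes.

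At 3 h few members had changed. In P 2 were higher and 1 lower than at 0 h, where 3.77% and 1.49% of all genes were. In Q 4 were higher and 7 lower, where 5.9% and 3.82% were. When libraries were scaled by their totals alone, the split in Q was 4 higher and 12 lower. The 3 members called in P were at ranks 41, 65 and 129. Rank 41 went from 299, 233 and 247 CPM to 426 and 430 CPM, and rank 129 from 42.9, 26.1 and 25.0 CPM to 56.6 and 84.4 CPM. Rank 65 was at 139.5 ± 26.3 CPM at 0 h (SD, n = 3) and at 62.4 and 61.0 CPM at 3 h. In each of the 3 the libraries of the 2 times did not overlap, and the log2 changes were 0.78, 1.23 and -1.12 (edgeR adjusted p 0.0200, 0.0175 and 0.00214). Without P 0 h replicate 3, or without P 3 h replicate 3, 1 member was called in place of 3.

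From 12 to 36 h in Q, 27 members fell and 2 rose, where 11.4% of all genes fell and 12.5% rose. The median log2 change was -0.44 in the members and 0.04 over all genes. This count depended on single libraries: it was 17 to 19 without any one of the Q 36 h libraries or without Q 12 h replicate 2, against 29 in all.

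Few members were called between P and Q before recovery. At 0 h no member was called between the letters, where 0% of all genes were, and 8 members, or 5.33%, had an unadjusted p under 0.05, against 6.2% of all genes. At 3 h no member was called, where 0.0138% were, and 2 members, or 1.33%, had an unadjusted p under 0.05, against 5.7% of all genes. DESeq2 also called 0 at both times. At 12 h 4 members were higher in P and 0 lower, where 2.26% of all genes were higher and 1.31% lower. The change from 0 to 12 h differed between P and Q in 0 members by edgeR, where 0.0461% of all genes were called, and DESeq2 called 5 members among 728 genes. An unadjusted p under 0.05 was reached by 25 members, or 16.7%, against 14.3% of all genes.

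For comparisons that the rule used, the counts stand as a description. Against 0 h 129 members were called lower in P at 36 h, where 17.7% of all genes were. Against 12 h 127 were, where 15.8% were. Against Q at 36 h 90 were, where 4.94% were, and that count was 33 without P 36 h replicate 2. Nothing is read from these shares.

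**Figure D3:**
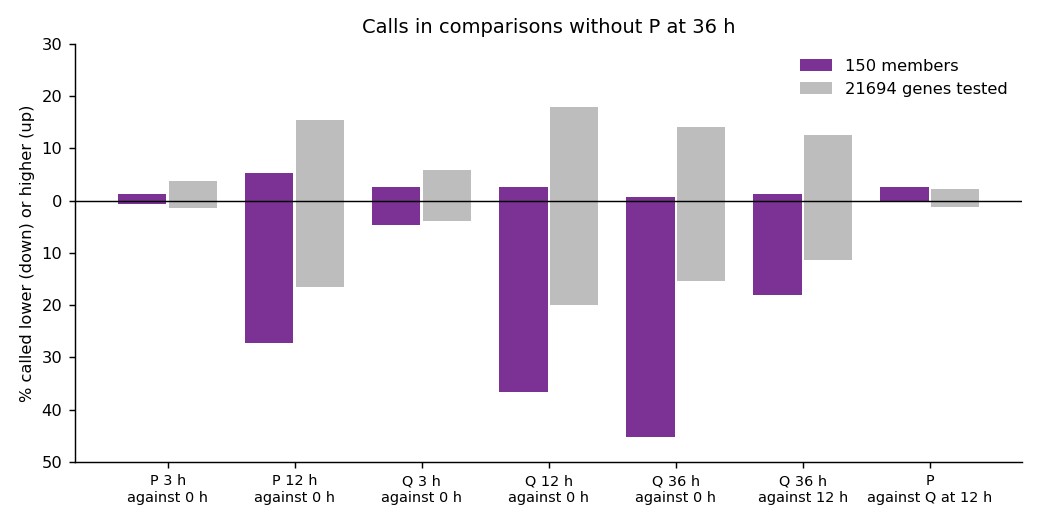
Percentage of the 150 members (purple) and of the 21694 genes tested (grey) called higher (above 0) or lower (below 0) by edgeR in 7 comparisons without P at 36 h. The members stand out downward most in Q at 36 h against 0 h, with 45.3% lower against 15.3% of all genes. That difference is not free of the rule.

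Among the 7 other groups, Q at 36 h was most often the one closest to the recovery group from above. It held the lowest other mean for 77 members, or 51.3%, where it was the lowest of the 7 for 14.3% of the 16061 genes. The score is taken from that lowest mean, so nothing is read from this difference. Q at 12 h followed with 24 members and P at 12 h with 16. Q at 36 h was the highest of the 7 for only 1 member, or 0.667%, against 20.9% of genes. Q at 0 h was the highest for 50 members, or 33.3%, against 23.6%.

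The calls at 12 h divide the members into sets with different histories. The largest set, of 79 members, was called in neither letter, which is 52.7% of members and 53.6% of all genes tested. Its median group level was 15.1 CPM in P at 0 h and 17.5 CPM at 12 h, then 2.68 CPM at 36 h. In Q the medians were 19.9, 18.8 and 12.9 CPM at the same times. At 0 and 12 h the medians were nearly level in both letters, which choosing members without a call favours. The set also holds members whose libraries scattered, so it is not a set of steady genes.

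The second set, of 36 members, was lower at 12 h than at 0 h in both letters, which is 24% of members and 12.2% of all genes. Its median group level was 104 CPM in P at 0 h, 22.5 CPM at 12 h and 6.46 CPM at 36 h. In Q it was 115, 21.8 and 17.6 CPM. Of the other members 24 were lower in 1 letter, 5 of them in P and 19 in Q, which is 16% of members and 12% of all genes. A further 11 were higher in at least 1 letter, 1 of them in both, which is 7.33% of members and 22.1% of all genes. In the 11 the median group level in P was 6.70 CPM at 0 h, 22.5 CPM at 12 h and 2.56 CPM at 36 h.

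A total of 56 members, or 37.3%, were called in none of the 9 comparisons without P at 36 h, where 41.5% of all genes tested were called in none, and 21 of these were among the 50 members of highest score. Their median group level was 11 CPM in P at 0 h, 13.7 CPM at 12 h and 2.43 CPM at 36 h, and 13.1 CPM in Q at 36 h. For 28 of the 56 both recovery libraries lay below all 20 others. A gene can be in this set because it was steady or because its libraries scattered, and both kinds were found.

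Among these 56 members, the 6 with the steadiest course outside recovery lay at ranks 59 to 135. Over the 7 other groups the mean log2(CPM + 1) ranged over 0.37 at rank 119, the smallest range of the 150, against a median of 1.61 over the members and 0.92 over all 16061 genes. Rank 119 had 4.12 and 0.883 CPM in P at 36 h, and the higher of these lies among the values of the other libraries, such as 3.99 CPM in P 0 h replicate 2. Rank 69 was clearer: it had 26.3 and 25.5 CPM in P at 36 h and between 49.3 and 141 CPM in the other 20 libraries. These members were picked out after their values were seen.

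The member of highest score, TRINITY_DN2177_c3_g1, scattered widely within its groups. It had 508, 381 and 57.4 CPM in P at 0 h, 63.3 and 247 CPM at 3 h, 48.9, 106 and 51.8 CPM at 12 h, and 2.18 and 4.53 CPM at 36 h. In Q it had 172, 32.5 and 242 CPM at 0 h, 282, 488 and 313 CPM at 3 h, 420, 21.6 and 9.75 CPM at 12 h, and 96.8, 12.3 and 13.3 CPM at 36 h. Both recovery libraries were below every other library, and the mean in Q at 36 h was 12.2 times theirs. None of its changes outside P at 36 h passed the test: the log2 change to 12 h in P was -2.07 (edgeR adjusted p 0.238) and that to 36 h in Q was -1.87 (edgeR adjusted p 0.305).

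TRINITY_DN5076_c0_g1, at rank 2, was nearly without reads in 1 recovery library. It had 1.59 and 0.0589 CPM in P at 36 h, which are 27 counts and 1 count. The other groups of P held 22.8, 24.0 and 62.3 CPM at 0 h, 7.83 and 7.41 CPM at 3 h, and 4.80, 34.9 and 32.9 CPM at 12 h. In Q it had 70.4, 109 and 18.7 CPM at 12 h and 5.33, 12.1 and 21.3 CPM at 36 h, a log2 change of -2.42 that missed the threshold (edgeR adjusted p 0.0598). The 2 recovery libraries again lay below all others.

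The scatter of the leading members differed from one to the next. Rank 3 had 18.2 and 1.41 CPM in P at 36 h, and its higher value exceeded the 12.1 CPM of a Q 36 h library. Rank 10 was tight: 40.3, 48.1 and 53.8 CPM in P at 0 h, 17.8, 17.1 and 22.2 CPM at 12 h and 4.23 and 2.35 CPM at 36 h. Its Q libraries had 51.5, 51.9 and 54.1 CPM at 0 h, 17.6, 22.1 and 14.8 CPM at 12 h and 15.7, 11.9 and 16.0 CPM at 36 h. The libraries of 0 and 12 h did not overlap in either letter, and it fell by 1.19 on the log2 scale in P and by 1.42 in Q (edgeR adjusted p 0.000138 and 1.54e-05).

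The largest called falls from 0 to 12 h in P were at ranks 8 and 5, which share a Trinity cluster and may share reads. Rank 8 had 3349, 2333 and 3290 CPM in P at 0 h, 1834 and 1482 CPM at 3 h, 36.4, 86.5 and 68.9 CPM at 12 h and 9 and 5 CPM at 36 h. In Q it had 3004, 2608 and 2473 CPM at 0 h, 1403, 1285 and 1348 CPM at 3 h, 48.0, 26.2 and 35.5 CPM at 12 h and 25.1, 23.6 and 40.7 CPM at 36 h. From 0 to 12 h its level dropped to between 26.2 and 86.5 CPM in all 6 libraries, with no overlap between the times in either letter. The log2 change was -5.41 (SE 0.35) in P (edgeR adjusted p 1.90e-09) and -6.09 (SE 0.37) in Q (edgeR adjusted p 7.26e-10).

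Rank 5 moved as rank 8 did. It went from 1775, 1037 and 1591 CPM to 22, 45.4 and 27.5 CPM in P, and from 1377, 1293 and 1209 CPM to 25.7, 16.0 and 16.0 CPM in Q. Its log2 changes were -5.40 (SE 0.38) and -5.95 (SE 0.39; edgeR adjusted p 7.05e-09 and 2.58e-09). At 36 h it stood at 4.76 and 2.24 CPM in P and 14.6, 11.5 and 25.1 CPM in Q. The change from 12 to 36 h in Q did not pass the test for either gene, with log2 changes of -0.25 at rank 5 and -0.37 at rank 8 (edgeR adjusted p 0.622 and 0.400). Rank 16 lies in another cluster, but its identifier starts with the same Trinity number as those of ranks 5 and 8. From 0 to 12 h in P it went from 1188, 776 and 1131 CPM to 14.6, 40.8 and 28.7 CPM. The 3 members may therefore not be independent.

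Rank 11, another abundant member, also fell in both letters. It had 4315 ± 644 CPM in P at 0 h and 112 ± 34.3 CPM at 12 h (SD, n = 3 each), with 18.8 and 8.83 CPM at 36 h. The Q groups were at 5382 ± 1568, 64.5 ± 21.9 and 50.3 ± 5.72 CPM at those times (SD, n = 3 each). The log2 change to 12 h was -5.14 in P and -6.27 in Q (edgeR adjusted p 2.31e-09 and 3.63e-10). Rank 83, which had the highest mean level of the 150, had smaller log2 changes and scattered more: it had 4939, 2153 and 1263 CPM in P at 0 h, 251, 343 and 398 CPM at 12 h and 33.8 and 16.3 CPM at 36 h. Its log2 change to 12 h was -2.95 in P and -4.45 in Q (edgeR adjusted p 0.0205 and 0.00182). One Q 36 h library of rank 83, at 6.90 CPM, lay below both recovery libraries of P, and the mean of the group was 86.1 ± 73.2 CPM (SD, n = 3).

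Rank 28 was abundant without such a fall. It had 1860, 1984 and 2518 CPM in P at 0 h, 1495, 1181 and 1158 CPM at 12 h and 647 and 191 CPM at 36 h. In the Q libraries it had 2210, 2248 and 2426 CPM at 0 h, 1854, 1317 and 1387 CPM at 12 h and 948, 991 and 1002 CPM at 36 h. Every recovery library of P was below all other libraries, and the 2 were over 3-fold apart. The fall from 0 to 36 h in Q passed the test, with a log2 change of -1.19 (edgeR adjusted p 0.00292), and the change from 0 to 12 h passed in neither letter (adjusted p 0.103 in P and 0.183 in Q by edgeR). Ranks 11, 28 and 83 were chosen after their values were seen, as the 3 members of highest mean level.

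**Figure D4:**
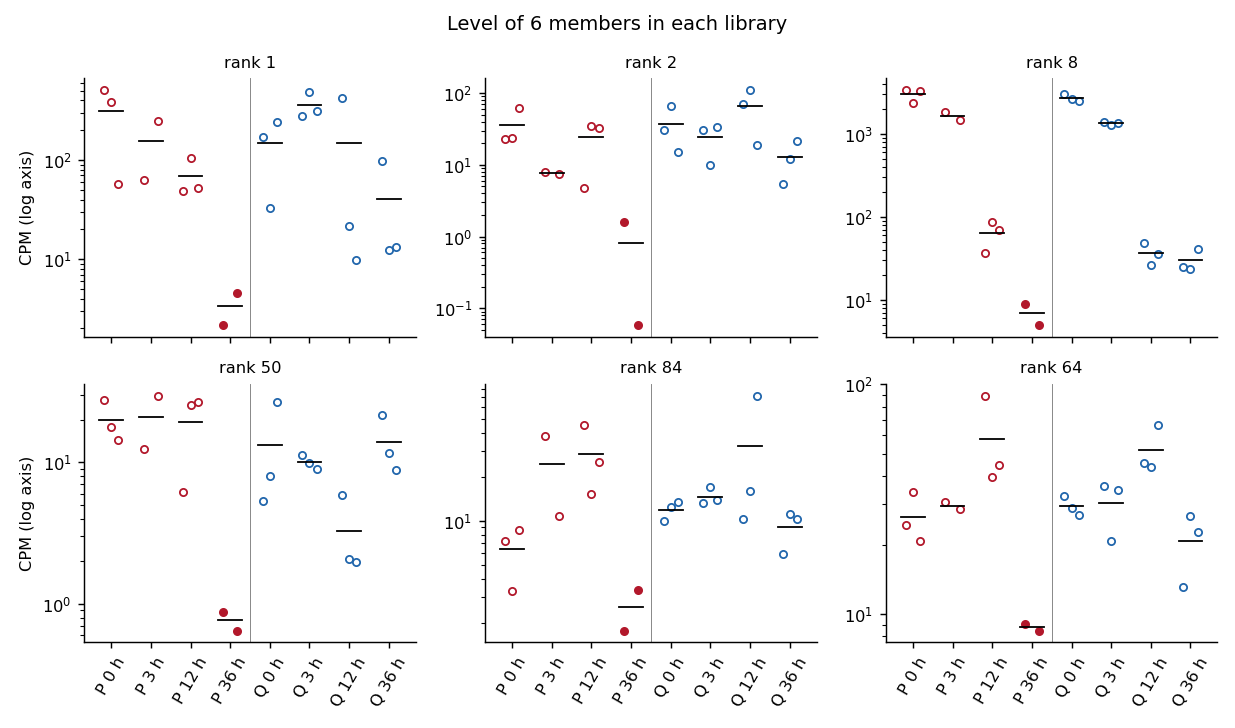
CPM (log axis) of 6 members in each library, by letter and time, with P in red, Q in blue, filled points for P at 36 h and a bar at each group mean. Ranks 1 and 2 have the highest scores, rank 8 the largest fall from 0 to 12 h in P, rank 50 was higher in Q at 36 h than at 12 h, and ranks 84 and 64 were higher in P at 12 h than at 0 h.

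A minority of members rose before recovery. TRINITY_DN13842_c0_g1, at rank 84, had 7.27, 3.28 and 8.67 CPM in P at 0 h, 38.2 and 10.7 CPM at 3 h, 45.1, 15.3 and 25.1 CPM at 12 h and 1.76 and 3.35 CPM at 36 h. Its Q libraries held 10.0, 12.4 and 13.4 CPM at 0 h, 10.2, 16.0 and 71.5 CPM at 12 h and 5.87, 11 and 10.3 CPM at 36 h. The 12 h libraries of P lay above those of 0 h, and the higher recovery value of 3.35 CPM was just above the lowest 0 h value of 3.28 CPM. The log2 change to 12 h in P was 2.27 (SE 0.66; edgeR adjusted p 0.0147), and the call was lost without P 12 h replicate 1, at 1.796 (adjusted p 0.0651), and without P 0 h replicate 2, at 1.96 (adjusted p 0.0632).

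TRINITY_DN1627_c0_g1, at rank 64, rose in both letters. It had 24.5, 34.1 and 20.9 CPM in P at 0 h, 89.0, 39.3 and 44.7 CPM at 12 h and 9.06 and 8.47 CPM at 36 h. The Q libraries held 32.7, 29.1 and 27.1 CPM at 0 h, 45.6, 43.7 and 66.7 CPM at 12 h and 13.1, 26.9 and 22.7 CPM at 36 h. The 12 h libraries were above the 0 h libraries in each letter, and both recovery libraries of P were below all others. The log2 change was 1.24 (SE 0.31) in P (edgeR adjusted p 0.00520) and 0.93 in Q (edgeR adjusted p 0.0246). In Q it then fell by 1.39 on the log2 scale from 12 to 36 h (edgeR adjusted p 0.00412). The rise in Q was not called without Q 0 h replicate 2 or 3 or without Q 12 h replicate 3, with adjusted p between 0.0633 and 0.0951.

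The single member higher in Q at 36 h than at 0 h was rank 139. It had 78.9, 88.5 and 107 CPM in Q at 0 h, 298, 229 and 185 CPM at 12 h and 161, 168 and 155 CPM at 36 h. In P it had 102, 187 and 139 CPM at 0 h, 137, 228 and 220 CPM at 12 h and 46.2 and 55.7 CPM at 36 h. The 3 libraries of Q at 36 h were all above those of 0 h, with a log2 change of 0.85 (SE 0.24; edgeR adjusted p 0.0103). P at 36 h was below every other library.

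Between 12 and 36 h in Q the largest falls were at ranks 132 and 130. Rank 132 had 91.3, 36.4 and 44.2 CPM at 12 h and 7.60, 7.47 and 6.63 CPM at 36 h, a log2 change of -3.07 (edgeR adjusted p 0.00627). In P at 36 h it had 2.41 and 2.94 CPM. Rank 130 had 17.8, 24.1 and 14.8 CPM at 12 h and 1.53, 5.84 and 0.737 CPM at 36 h, a log2 change of -2.86 (edgeR adjusted p 0.00859). Its recovery values of 0.941 and 0.530 CPM were not both below those of Q at 36 h.

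The only 2 rises between 12 and 36 h in Q were at ranks 50 and 24. Rank 50 had 5.83, 2.07 and 1.96 CPM at 12 h and 21.5, 11.6 and 8.85 CPM at 36 h, a log2 change of 2.00 (SE 0.67; edgeR adjusted p 0.0407). In P it had 6.18, 25.2 and 26.5 CPM at 12 h and 0.882 and 0.647 CPM at 36 h. Rank 24 had 107, 75.6 and 71.4 CPM at 12 h and 249, 169 and 177 CPM at 36 h in Q, a log2 change of 1.15 (SE 0.39; edgeR adjusted p 0.0442). In P rank 24 had 198, 112 and 146 CPM at 12 h and 44.4 and 17.0 CPM at 36 h. The libraries of the 2 times did not overlap in Q for either gene. Both calls lay close to the threshold, and of the 22 fits that each leave out 1 library, rank 50 kept its call in 16 and rank 24 in 10. The calls of both were lost without any one of Q 12 h replicates 2 and 3 and Q 36 h replicates 1 and 2, where the log2 change was 1.54 to 2.11 at rank 50 and 0.94 to 1.25 at rank 24.

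The 4 members higher in P than in Q at 12 h were at ranks 49, 50, 94 and 127. Rank 50 had the largest difference, a log2 change of 2.65, with the values given above (edgeR adjusted p 0.0435). Rank 49 had 4.29, 14.9 and 11.7 CPM in P and 6.08, 3.43 and 3.17 CPM in Q (log2 1.38, edgeR adjusted p 0.0409). Rank 94 had 3.27, 4.50 and 5.67 CPM in P and 1.63, 2.65 and 2.25 CPM in Q (log2 1.13, edgeR adjusted p 0.0286). Rank 127 had 8.22, 22.7 and 23.8 CPM in P and 8.47, 6.80 and 6.46 CPM in Q (log2 1.42, edgeR adjusted p 0.0495).

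P and Q were free of overlap at 12 h at ranks 50 and 94, while at ranks 49 and 127 the lowest library of P, replicate 1, lay below the highest of Q. At each of the 4 the order of P and Q at 36 h was the reverse of that at 12 h, which the rule fixes. The 4 calls were kept in 5 (rank 50), 10 (rank 49), 17 (rank 94) and 4 (rank 127) of the 22 fits that each leave out 1 library. No member was called without P 12 h replicate 2 or 3 or without Q 12 h replicate 1 or 2, and 14 were called without P 12 h replicate 1.

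A small set of members was low in P at 36 h and in certain libraries of every other group except P at 12 h. Ranks 15, 32, 40 and 44, chosen after their values were seen, had at most 0.376 CPM in the same 6 libraries: P 0 h replicate 2, P 3 h replicate 3, Q 0 h replicate 3, Q 3 h replicate 2, Q 12 h replicate 1 and Q 36 h replicate 1. Rank 15 had 0 and 0.530 CPM in P at 36 h, and in Q at 36 h it had 0, 26.0 and 65.8 CPM. Its P libraries at 12 h had 30.4, 13.2 and 8.80 CPM. The recovery libraries were thus at levels that libraries of other groups also had, and P at 36 h stands lowest through the group means that the rule compares.

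Applied in the same way to each of the other 7 groups, the rule gave smaller scores. The gene at rank 150 scored 0.804 for P at 36 h, against 0.288 (Q at 3 h) to 0.586 (Q at 12 h) elsewhere, and 88 genes scored at least 1 for P at 36 h against 3 to 18 elsewhere. Genes with any score above 0 numbered 2587 for P at 36 h, or 16.1%, and 2976 for P at 12 h. The mirror rule gave far larger scores: of genes highest in P at 36 h the one at rank 150 scored 2.65, and 653 scored at least 1. A mean of 2 libraries scatters more than one of 3, and both P at 36 h and P at 3 h rest on 2. For P at 3 h 5 genes scored at least 1. The chi-square per gene was 21.4 between the 2 libraries of P at 3 h and 49.7 between those of P at 36 h. For P at 0 h, a group of 3 libraries, it was 42.7, 47.3 and 57.2 between pairs, and 5 genes scored at least 1. How far scatter raised the scores was not tested. These scores are a description without a test.

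**Figure D5:**
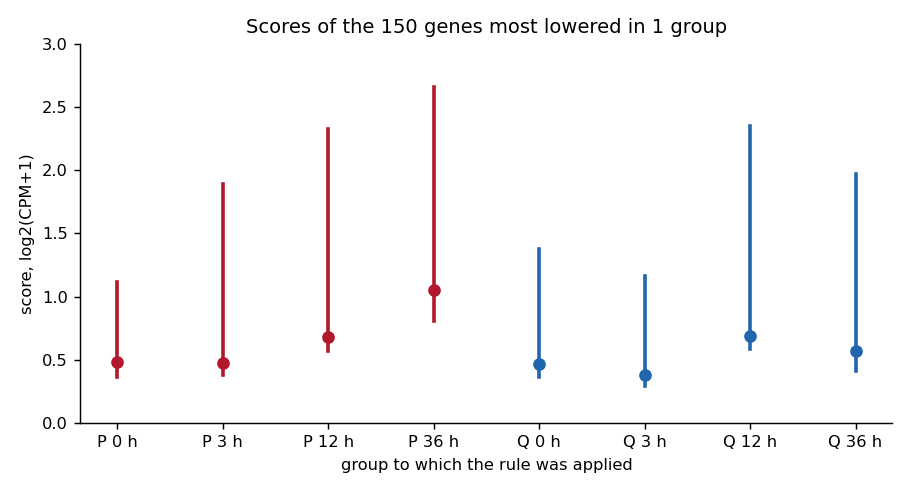
Score on the log2(CPM + 1) scale of the 150 genes most lowered in each of the 8 groups relative to the other 7, from rank 150 to rank 1 (line) with the median (point). The line for P at 36 h, from 0.804 to 2.66, has the highest lower end, upper end and median of the 8.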

How the data were processed

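The authors deposited 1 table of raw counts, whole numbers per gene and library with no normalization; FastQC, HISAT2 and featureCounts were used, per the submitters' processing notes. What the reads were aligned to, and versions, are not given in the sources used here. Library totals were 13743563 to 18462363 counts. The table has 0 value columns other than those of the 22 samples. Replicate 1 (P, 3 h) and replicate 3 (P, 36 h) were not analysed here.

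Members were chosen on CPM from library totals with a pseudocount of 1. Tests used edgeR 4.0.16 in R 4.3.3: filterByExpr by the 8 groups with a minimum count of 10 left 21694 genes, TMM scaling, and a robust quasi-likelihood fit of all 22 libraries, so groups of 2 rest on the pooled spread. Members are given by rank of score, and 4 are named: the 2 of highest score, and the 2 with the largest called rise from 0 to 12 h in P without overlap, each alone in its Trinity cluster. Of the 150 members 48 share a cluster with another identifier, and reads of such genes may be split between them. The clusters of 34 members held 49 identifiers that were not members and had a mean of at least 1 CPM. Of these 49, 27 had a lower mean log2(CPM + 1) in P than in Q at 36 h and 22 a higher one. For 11 of the 49, P at 36 h was the highest of the 8 groups. The members, the rule for names and the comparisons were chosen with earlier results of these data known. Replicates differed beyond sampling noise, with a chi-square per gene of 17.8 to 57.2. Libraries of the same replicate number were not treated as pairs. Folds against 0 use a floor of 3 counts over the group. The fit was tested on simulated counts, where it missed part of the changes put in. A missing call therefore does not show that a level was steady. Alternatives were other scalings, filters, pseudocounts, DESeq2 1.42.0, a replicate block, Trinity clusters, the libraries compared alone and leaving out each library.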

Additional observations from a re-analysis of the deposited data

How the results depend on the processing

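The membership depended most on the 2 recovery libraries and on the pseudocount: 97 of the 150 stayed among the top 150 when either P 36 h library was left out (97 to 149 over the 22 omissions), and 78 stayed with log2(CPM + 10), which gives low genes less weight. With counts summed over Trinity clusters 127 stayed. The counts of members called moved by over 1.5 times as follows, and the cause was not tested. For 3 against 0 h in P the 3 calls became 11 with DESeq2 and 1 to 6 with 1 library left out. For 3 against 0 h in Q the 11 became 23 with only the libraries compared and 22 with DESeq2, and 8 to 15 with 1 left out. For 36 against 12 h in Q the 29 became 44 with only the libraries compared, and 17 to 40 with 1 left out. For P against Q at 12 h the 4 became 2 with library totals, 7 with at least 10 counts in at least 11 libraries, 8 with counts summed over Trinity clusters, 0 with only the libraries compared and 14 with DESeq2, and 0 to 14 with 1 left out. For P against Q at 36 h the 90 became 33 to 96 with 1 left out. For the change from 0 to 12 h in P set against that in Q, the 0 became 2 with no filter and 5 with DESeq2, and 0 to 5 with 1 left out. That last comparison and the count of members lower in both letters were added after seeing the data.

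Over 31 same-numbered pairs of libraries the deviations from the group means correlated between -0.182 and 0.128. With 2 or 3 libraries a group, this cannot exclude that libraries of the same number share a source. With the replicate number as a block, 5 members were called at 3 h in P in place of 3 and 2 between letters at 12 h in place of 4.

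The counts for 12 against 0 h ran from 36 to 55 in P and from 45 to 64 in Q over all alternatives, that for 36 against 0 h in Q from 55 to 72, and the members lower at 12 h in both letters from 28 to 42. Scaling by library totals moved the median log2 change of all genes from -0.04 to -0.17 for 12 against 0 h in P and from -0.02 to -0.14 in Q, where the split of members higher to lower became 4 to 48 and 2 to 61. A gene at 1 CPM rests on under 20 counts a library, which limits the low members most.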

Other observations

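Some members scattered together within their groups. Deviations from the group means were compared over the 20 libraries other than P at 36 h, and 0.725% of the 11175 pairs of members correlated above 0.8, a share that was not computed for other genes. Rank 4 exceeded 0.8 with 3 other members, at ranks 9, 25 and 84. The highest values of rank 4 were 43.6 CPM in P 3 h replicate 2 and 88.8 CPM in Q 12 h replicate 3. The other libraries of those groups had 7.21 CPM in P, and 5.77 and 5.70 CPM in Q. Rank 9 was high in the same libraries, with 49.0 CPM beside 16.0 CPM in P at 3 h and 46.9 CPM beside 2.70 and 6.73 CPM in Q at 12 h. So was rank 84, described above for its rise to 12 h in P. It had 38.2 CPM beside 10.7 CPM in P at 3 h. In Q at 12 h it had 71.5 CPM beside 10.2 and 16.0 CPM. The members compared were measured in the same libraries, and why some scattered together was not tested. Those described here were picked after their values were seen.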
